A study of Danio rerio with 4 samples.

Results

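Protocadherins are a family of cell adhesion receptors, and their transcripts were followed in zebrafish of 2 mutant lines and their siblings. The members are all rows of the deposited table of transcripts whose gene symbol starts with *pcdh*, 86 of 27423 rows. Of these, 65 were clustered protocadherins (symbols of *pcdh1* or *pcdh2* followed by a letter) and 21 were other protocadherins. The study sequenced RNA of whole embryos pooled at 48 hpf, with 4 conditions and 1 library for each. These were *gsp* mutants (goosepimples, homozygous for a mutation in *myo5b*, which encodes the motor Myosin Vb), *gsp* siblings (heterozygous and homozygous wild type together), *rhs* mutants (romeharsha, -/-) and *rhs* siblings (heterozygous and homozygous wild type together). Both lines were chosen because peridermal cells round up in the mutants. The gene mutated in *rhs* is not given in the sources used here. Each library is 1 pool, for which the sample labels give 20 embryos and the paper a larger number, so no test between conditions was possible and no spread between embryos is known. Line, clutch and library preparation cannot be told apart.

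Protocadherins belong to the cadherin superfamily and bind like molecules on neighbouring cells. The alpha and gamma genes stand in clusters, in which each of many variable exons has its own promoter and is spliced to constant exons shared by the whole cluster. In mammals, single neurons express different combinations of these isoforms, which are known for self-avoidance and neuronal identity. The protocadherins outside the clusters, many of them delta protocadherins, are known for cell sorting, axon growth and circuit formation, and Pcdh15 forms part of the tip link of sensory hair cells.

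Each value is an estimated count per transcript, unscaled between libraries, with a floor of 1. The totals were between 106188690 and 118680429 per library. Rows with at least 100 in all 4 libraries were taken as measured, 13633 in the whole table. Over these, the median log2 ratio of mutant to sibling was -0.11 in *gsp* and -0.20 in *rhs*, so ratios of members are also given relative to these shifts. A change of at least 1.48-fold, the threshold of the study, is used to describe members as higher or lower. Ratios have exact Clopper-Pearson intervals at a level of 95%, which cover counting error only and hold only as far as the values are counts. A value at the floor does not show that a transcript is absent. Of all rows, 326 stood at the floor in both *gsp* libraries with at least 100 in both *rhs* libraries, and 373 rows did the opposite, against 0 rows at the floor in both mutants alone and 1 in both siblings alone. The epithelial adhesion gene *epcam* was among them, with 93323 in *gsp* mutants against 44135 in their siblings and 1 in both *rhs* libraries. *myo5b* was listed at 1 in both *gsp* libraries, with 193 in *rhs* mutants against 87.8 in their siblings, so its level gives no check of the *gsp* labels.

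In *gsp* mutants 1 interval was higher and 1 lower of 25 distinct measured intervals, near the shares of all measured rows (5.07% higher and 4.83% lower). In *rhs* mutants, by contrast, most measured protocadherin intervals were lower. There 16 of the 25 were lower and 1 was higher, against 12.6% and 6.45% of all measured rows. The lowest ratios were those of the clustered genes *pcdh1g22*, *pcdh1g9* and *pcdh1gc6* and of *pcdh8*, a gene known from paraxial mesoderm, all with 0.334 to 0.383 of the sibling value. Above the sibling value in *rhs* mutants were 3 of the 25, against 3672 of all 13633 measured rows. They were the epithelial protocadherin gene *pcdh1*, with a ratio of 1.13, and the clustered genes *pcdh1gc5* (1.10) and *pcdh1g1* (1.58). Between the lines, 5 of 25 intervals (20%) differed past 1.48-fold the same way in mutants and siblings, against 13.1% of all rows. Among them were *pcdh1g1*, *pcdh1a6* and *pcdh8*. The sign of the line difference was the same in 9 of 25 intervals, against 67.3% of all rows. It turned for most intervals. Of those past the threshold between siblings, only *pcdh1g22* and *pcdh1a3* turned. On the log2 scale the difference between mutants is that between siblings plus the *gsp* ratio minus the *rhs* ratio. The turned signs are therefore not a result apart from the mutant ratios.

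The 86 rows did not hold 86 separate measurements. They carried 69 genes and 71 distinct intervals. Of the rows, 40 were measured, 9 were above the floor in some library but under 100 in another, and 37 were at the floor in all 4 libraries. Protocadherins were at the floor in 43.0% of their rows, against 36.2% of all rows. Each row at the floor had an interval of its own, so of the 71 distinct intervals 37 were at the floor. The rows at the floor were 27 clustered and 10 other rows. Those outside the clusters were *pcdh7*, *pcdh9*, *pcdh11x*, *pcdh12*, *pcdh20* and a *pcdh10* row, and also *pcdha*, *pcdha3*, *pcdhac2* and *pcdhga8*, whose symbols name cluster isoforms although the rule counts them as other.

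By subfamily, all 3 *pcdh1* alpha rows were measured, against 9 of 16 *pcdh1* gamma rows, 1 of 14 *pcdh2* alpha rows and 17 of 32 *pcdh2* gamma rows. In *pcdh2* gamma, 16 of the measured rows were a single interval, chr14:1785961-1787222 on the minus strand (danRer7, as in the file), listed under 16 gene symbols from *pcdh2g1* to *pcdh2g29*. These rows had the same values, 278 in *gsp* mutants against 266 in their siblings, and 211 in *rhs* mutants against 285 in their siblings. They cannot be assigned to any of the 16 genes and were counted once, which left 15 clustered and 10 other intervals measured.

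Short models were at the floor more often than long ones. Of the clustered intervals, 21 of 23 that span under 4000 bases were at the floor in all libraries (91.3%), against 6 of 27 longer ones (22.2%). Over all rows of the table the shares were 52.6% and 31.6%. Of the short models many are those of *pcdh2aa* and *pcdh2ab* genes. Whether the isoforms or the models account for these floors was not tested.

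Measured clustered models also overlapped. The 3 *pcdh1* alpha models ended at the same base of chromosome 10 (21729972), and 14 *pcdh1* gamma models ended together at 22032148. Reads of the shared constant exons fit every model that ends there. Yet of these 14 rows, 8 were measured and 5 were at the floor, and the lowest row above the floor, *pcdh1g11*, had 110 in *gsp* mutants against 123 in their siblings, and 40.8 in *rhs* mutants against 48.5 in their siblings. Reads of the shared end were therefore not counted in full in every row. How they were divided is not given in the sources used here, so values of clustered isoforms are uncertain and are not independent of each other.

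**Figure D1:**
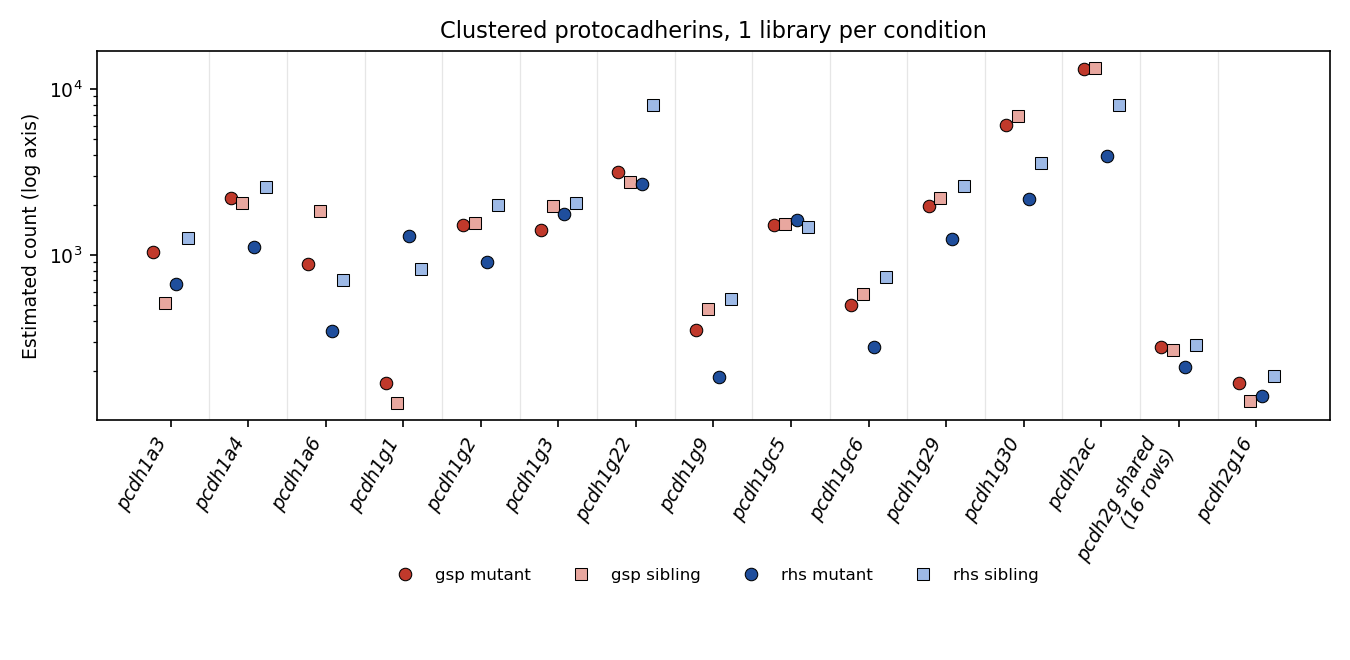
Estimated counts (log axis) of the 15 measured clustered protocadherin intervals in the 4 libraries, circles for mutants and squares for siblings, red for gsp and blue for rhs, with 1 point per library and no error bar. In 13 of the 15 intervals the rhs mutant lies below the rhs sibling, against 9961 of all 13633 measured rows. By at least 1.48-fold, pcdh1g1, pcdh1a3 and pcdh1g22 are lower, and pcdh1a6, pcdh1g30 and pcdh2ac higher, in the gsp sibling than in the rhs sibling.

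The alpha genes of the chromosome 10 cluster were *pcdh1a3*, *pcdh1a4* and *pcdh1a6*, each a variable exon of the alpha protocadherins. *pcdh1a3* (chr10:21640810-21729972) had 1034 in *gsp* mutants against 511 in their siblings, and 669 in *rhs* mutants against 1265 in their siblings. It stood higher in mutants than siblings in *gsp* and lower in *rhs*, and the *gsp* sibling was the lowest library. Mutants had 2.02 times (1.82 to 2.25) the sibling value in *gsp* but 0.529 times (0.481 to 0.581) in *rhs*. Against the siblings of the other line both directions turned, with log2 ratios of -0.29 for *gsp* mutants and 0.39 for *rhs* mutants.

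*pcdh1a6* (chr10:21658171-21729972) had 883 in *gsp* mutants against 1826 in their siblings, and 345 in *rhs* mutants against 703 in their siblings. Here both mutants were lower than their own siblings, and the *gsp* sibling was the highest library. *gsp* mutants had 0.483 (0.446 to 0.524) of the sibling value and *rhs* mutants 0.491 (0.430 to 0.559), and it was the only measured member past the threshold in the same direction in both. Set against the *rhs* siblings, however, *gsp* mutants were higher by a log2 ratio of 0.33. The third gene, *pcdh1a4* (chr10:21645191-21729972), had 2207 in *gsp* mutants against 2061 in their siblings, and 1107 in *rhs* mutants against 2565 in their siblings, with ratios of 1.07 and 0.432 (0.402 to 0.463).

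Summed, the *pcdh1* alpha rows had 4123 in *gsp* mutants against 4398 in their siblings, a ratio of 0.938. The opposite differences of *pcdh1a3* and *pcdh1a6* offset each other only in part. *pcdh1a4* held the largest share of the sum, 53.5% in *gsp* mutants against 46.9% in their siblings. The share of *pcdh1a3* in the sum reached 25.1% in *gsp* mutants against 11.6% in their siblings, and that of *pcdh1a6* reached 21.4% against 41.5% in their siblings. In *rhs* the sum was 2121 in mutants and 4533 in siblings, a ratio of 0.468. All 3 alpha genes were lower there, and their shares stayed close, with 31.5% in mutants and 27.9% in siblings for *pcdh1a3* and 16.3% in mutants and 15.5% in siblings for *pcdh1a6*.

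The gamma genes of the same cluster gave 9 measured rows. The lowest ratio in *rhs* was that of *pcdh1g22* (chr10:21838817-22032151), a variable gamma isoform with 3172 in *gsp* mutants against 2764 in their siblings, and 2660 in *rhs* mutants against 7957 in their siblings. The *rhs* sibling stood far above the other libraries, and the *rhs* mutant was at the level of both *gsp* libraries. The ratio in *rhs* was 0.334 (0.320 to 0.349), and that between the *gsp* and *rhs* siblings was 0.347 (0.333 to 0.363). Its share of all *pcdh1* gamma counts was 21.9% in *rhs* mutants and 36.5% in *rhs* siblings, against 18.9% in *gsp* mutants and 15.2% in *gsp* siblings.

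The variable isoform *pcdh1g9* (chr10:21913642-22032148) had 354 in *gsp* mutants against 468 in their siblings, and 184 in *rhs* mutants against 545 in their siblings, a ratio of 0.337 (0.284 to 0.400) in *rhs*. *pcdh1gc6* (chr10:22005761-22032148), whose symbol carries the c of C-type isoforms, had 499 in *gsp* mutants against 584 in their siblings, and 280 in *rhs* mutants against 730 in their siblings, a ratio of 0.383 (0.333 to 0.441). For both genes the *rhs* mutant was the lowest library and the *rhs* sibling the highest. *pcdh1g29* (chr10:22009367-22032148) had the same order, with 1962 in *gsp* mutants against 2204 in their siblings, and 1245 in *rhs* mutants against 2598 in their siblings, and a ratio of 0.479 in *rhs*.

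*pcdh1g30* (chr10:22013121-22032148) had 6089 in *gsp* mutants against 6900 in their siblings, and 2173 in *rhs* mutants against 3575 in their siblings. Both *gsp* libraries were above both *rhs* libraries. The *gsp* ratio was 0.882 and the *rhs* ratio 0.608 (0.576 to 0.641), and *gsp* siblings had 1.93 times the value of *rhs* siblings. *pcdh1g2*, named here although the naming rule did not choose it, had 1504 in *gsp* mutants against 1559 in their siblings, and 907 in *rhs* mutants against 1989 in their siblings.

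*pcdh1g1* (chr10:21732033-22032148) was the only measured member higher past the threshold in *rhs* mutants. It had 168 in *gsp* mutants against 127 in their siblings, and 1293 in *rhs* mutants against 819 in their siblings. Both mutants were above their siblings, but the lines did not overlap. The sibling value was exceeded 1.32 times (1.04 to 1.68) in *gsp* mutants and 1.58 times (1.45 to 1.73) in *rhs* mutants, while *gsp* siblings had 0.155 (0.128 to 0.187) of the *rhs* sibling value. At a minimum of 200 in all libraries it is not counted.

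Of the remaining gamma isoforms, *pcdh1gc5* (chr10:22002045-22032148), of the C type, had 1512 in *gsp* mutants against 1539 in their siblings, and 1611 in *rhs* mutants against 1470 in their siblings. It was the most even of the *pcdh1* gamma rows, with a *gsp* ratio of 0.983 (0.915 to 1.06) and an *rhs* ratio of 1.10 (1.02 to 1.18). *pcdh1g3* (chr10:21741652-22032148) had 1407 in *gsp* mutants against 1977 in their siblings, and 1769 in *rhs* mutants against 2045 in their siblings, and its ratio of 0.712 in *gsp* did not reach the threshold. Summed over *pcdh1* gamma, *gsp* mutants had 16778 and *gsp* siblings 18245, a ratio of 0.920, and *rhs* mutants had 12161 and *rhs* siblings 21777, a ratio of 0.558.

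In the chromosome 14 clusters the measured alpha row was *pcdh2ac* (chr14:2765449-2805779), whose symbol names an alpha isoform of the C type. It had 13141 in *gsp* mutants against 13437 in their siblings, and 3953 in *rhs* mutants against 7950 in their siblings. The *gsp* libraries lay together and above both *rhs* libraries. The *gsp* ratio was 0.978 (0.955 to 1.002) and the *rhs* ratio 0.497 (0.479 to 0.517), with 1.69 between *gsp* and *rhs* siblings and 3.32 between *gsp* and *rhs* mutants. Its model overlapped no other measured member. A further alpha gene, *pcdh2aa1*, was at 1 in both *gsp* libraries, with 474 in *rhs* mutants against 798 in their siblings, and was the only protocadherin row with this pattern of floors. No fold is given for it. The other 12 *pcdh2* alpha rows were at the floor in every library.

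The *pcdh2* gamma rows had few counts, close to the minimum of 100. *pcdh2g16* (chr14:2947990-3057388) had 169 in *gsp* mutants against 132 in their siblings, and 142 in *rhs* mutants against 185 in their siblings, and neither ratio of mutant to sibling passed the threshold. Of the 6 *pcdh2* gamma rows with a value above the floor but under 100 in some library, *pcdh2g10* stood apart by line, with 167 in *gsp* mutants against 137 in their siblings, and 44.2 in *rhs* mutants against 39.2 in their siblings. The others were between 28.1 and 109. Summed over distinct intervals, *pcdh2* gamma gave 1060 in *gsp* mutants against 895 in their siblings, and 769 in *rhs* mutants against 977 in their siblings.

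**Figure D2:**
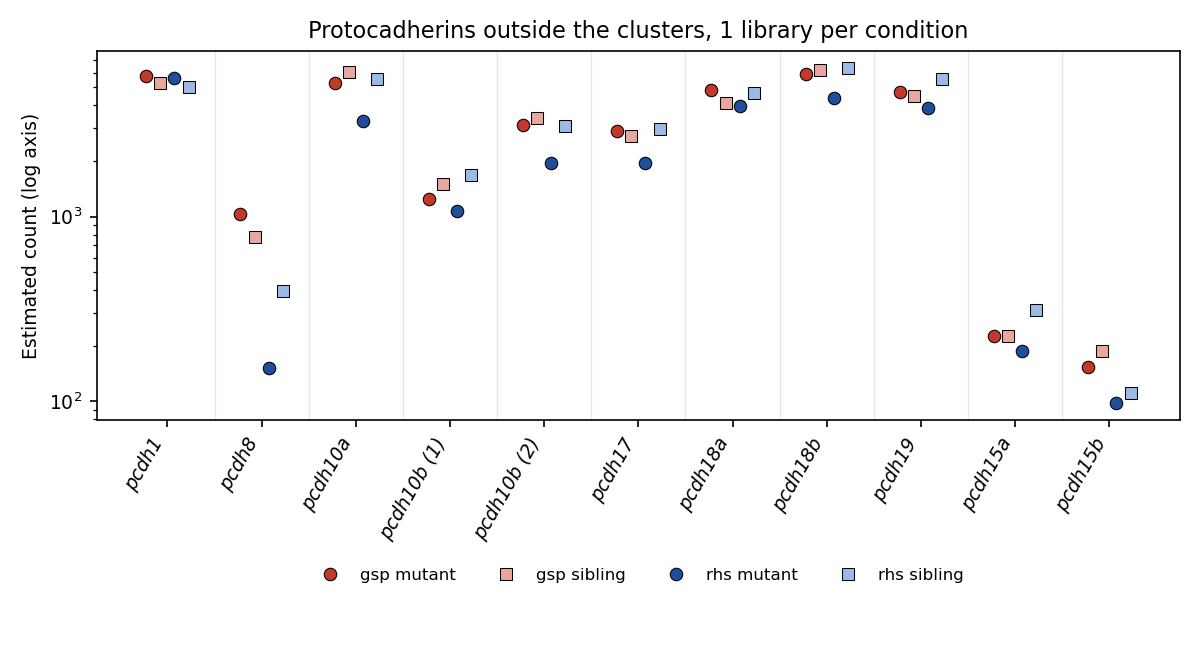
Estimated counts (log axis) of the 11 protocadherin rows outside the clusters that reached 100 in some library, circles for mutants and squares for siblings, red for gsp and blue for rhs, with 1 point per library and no error bar; pcdh10b has 2 models. For pcdh8 both rhs libraries lie below both gsp libraries, and for pcdh1 the 4 libraries lie between 4998 and 5729.

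Outside the clusters, *pcdh8*, known in zebrafish as paraxial protocadherin and for cell movements of the paraxial mesoderm, differed most. At chr9:55658781-55666747 it had 1031 in *gsp* mutants against 776 in their siblings, and 151 in *rhs* mutants against 395 in their siblings. Mutants stood above siblings in *gsp* and below them in *rhs*, and the difference between the mutants of both lines was larger than either. The *gsp* ratio of 1.33 (1.21 to 1.46) was under the threshold, and the *rhs* ratio was 0.383 (0.315 to 0.462). *gsp* siblings had 1.97 times (1.74 to 2.22) the value of *rhs* siblings, and *gsp* mutants had 6.82 times (5.75 to 8.15) that of *rhs* mutants.

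The paralogs *pcdh10a* and *pcdh10b* encode a delta protocadherin needed for axon growth in mice. *pcdh10a* (chr1:12097366-12126956) had 5287 in *gsp* mutants against 6084 in their siblings, and 3292 in *rhs* mutants against 5551 in their siblings, with a *gsp* ratio of 0.869 (0.837 to 0.902) and an *rhs* ratio of 0.593 (0.568 to 0.619). *pcdh10b* was listed with 2 models that do not overlap. The model at chr14:45355449-45365836 had 3123 in *gsp* mutants against 3409 in their siblings, and 1940 in *rhs* mutants against 3077 in their siblings. The model at chr14:45216807-45224046 had 1245 in *gsp* mutants against 1495 in their siblings, and 1067 in *rhs* mutants against 1669 in their siblings. All 3 models moved alike within a line, with *gsp* ratios of 0.833 to 0.916 and *rhs* ratios of 0.593 to 0.639. Reads that fit more than 1 of them may have been divided between them.

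Other delta protocadherins shared the lower level in *rhs* mutants to different degrees. *pcdh17* (chr11:33390694-33535501), known in mice for synapses of the basal ganglia, had 2920 in *gsp* mutants against 2714 in their siblings, and 1939 in *rhs* mutants against 2978 in their siblings, a ratio of 0.651 (0.615 to 0.690) in *rhs*. *pcdh19* (chr14:41607082-41694634), an epilepsy gene in humans and a partner of N-cadherin in zebrafish, had 4733 in *gsp* mutants against 4513 in their siblings, and 3868 in *rhs* mutants against 5579 in their siblings. Its ratio of 0.693 (0.665 to 0.722) in *rhs* did not reach the threshold, nor did the 0.680 (0.654 to 0.707) of *pcdh18b* (chr14:44409301-44416148), a gene known in zebrafish for motor axon branching, which had 5895 in *gsp* mutants against 6203 in their siblings, and 4354 in *rhs* mutants against 6400 in their siblings. In each of these genes the *rhs* mutant was the lowest library.

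*pcdh18a* (chr1:12145908-12155872), the paralog of *pcdh18b*, had 4823 in *gsp* mutants against 4092 in their siblings, and 3963 in *rhs* mutants against 4660 in their siblings, with ratios of 1.18 (1.13 to 1.23) and 0.850 (0.815 to 0.887). *pcdh1* (chr14:38820198-39011947), a single gene outside the clusters despite its symbol and known in humans from airway epithelium, had 5729 in *gsp* mutants against 5299 in their siblings, and 5651 in *rhs* mutants against 4998 in their siblings. Of the measured members outside the clusters, it alone was above its sibling in *rhs*, by a ratio of 1.13 (1.09 to 1.17), against 1.08 (1.04 to 1.12) in *gsp*. Both ratios are far from the threshold.

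The *pcdh15* paralogs had few counts, so their ratios have wide intervals. *pcdh15a* (chr13:41782750-42199243), needed for hair cell mechanotransduction in zebrafish, had 227 in *gsp* mutants against 227 in their siblings, and 187 in *rhs* mutants against 314 in their siblings, with ratios of 1.001 and 0.595 (0.494 to 0.716). *pcdh15b* (chr12:7250002-7577286), needed for photoreceptors in zebrafish, had 153 in *gsp* mutants against 187 in their siblings, and 97.7 in *rhs* mutants against 111 in their siblings and was just under the minimum in *rhs* mutants. Of 25 listed hair cell partners of Pcdh15, 13 were in the table and 8 were measured, and the tip link partner *cdh23* was at the floor in every library. In *rhs* mutants 1 of the 8 was higher and 1 lower, against 6.45% and 12.6% of all measured rows. The higher one was the hair cell transcription factor gene *atoh1a*, with 1724 in mutants and 1034 in siblings. The lower one was the calcium-binding partner gene *cib2*, with 214 in mutants and 373 in siblings. Between siblings *cib2* also differed, with 2.08 times the *rhs* sibling value in *gsp* siblings. In *gsp* none of the 8 passed the threshold, against 9.90% of all measured rows.

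**Figure D3:**
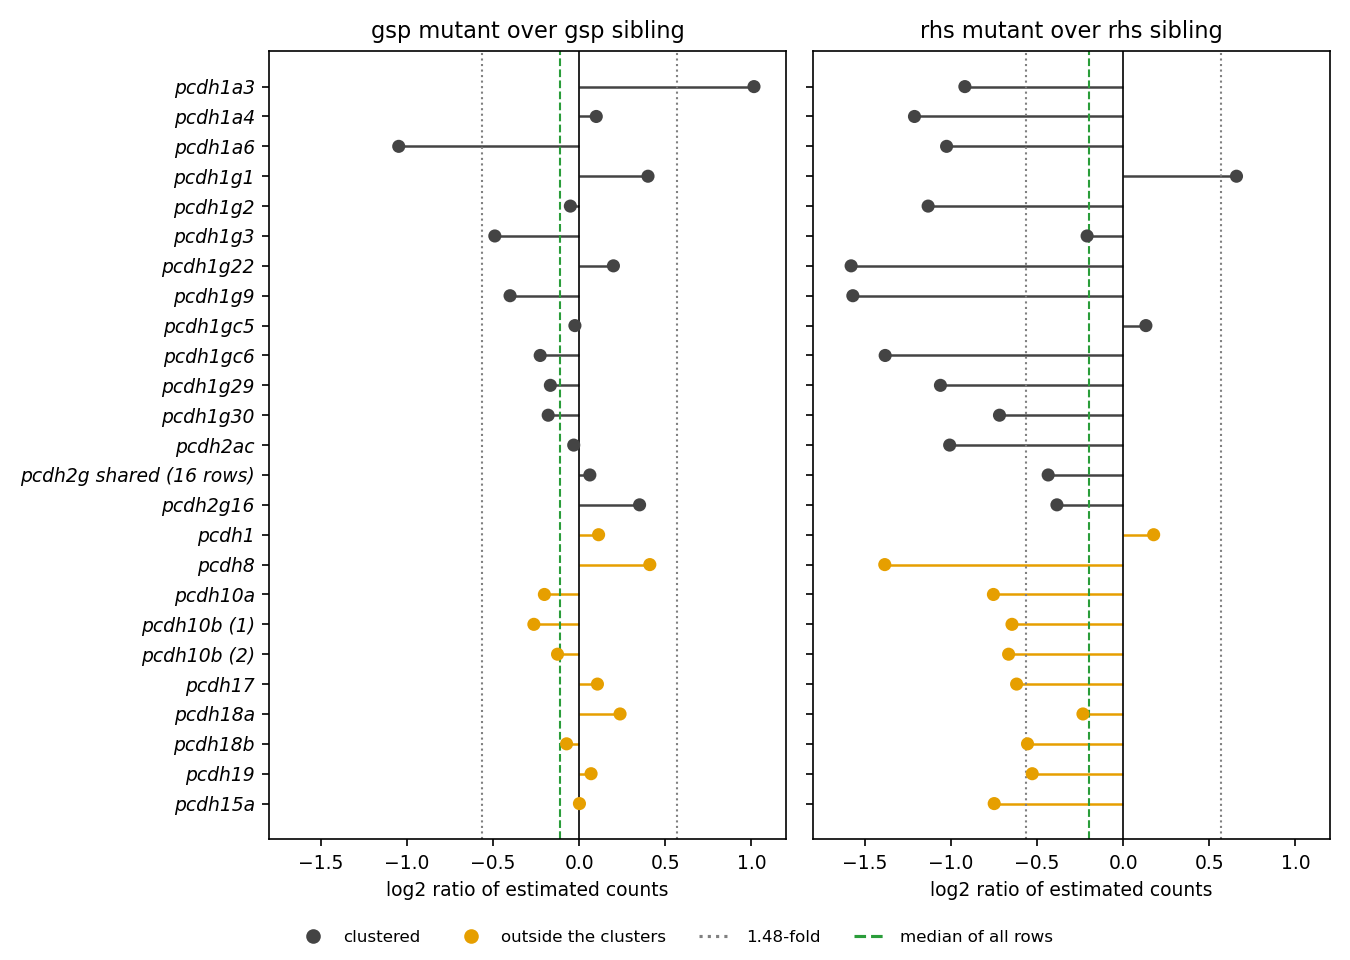
Log2 ratio of estimated counts, mutant over sibling, for each of the 25 measured protocadherin intervals in gsp (left) and rhs (right), dark for clustered and orange for other members; dotted lines mark 1.48-fold and the dashed line the median of all measured rows. In gsp only pcdh1a3 and pcdh1a6 pass a dotted line, and in rhs 16 intervals lie left of it and pcdh1g1 lies right of it.

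Counted over the whole family, *gsp* mutants had 1 higher and 1 lower interval of 25, against 5.07% of all measured rows higher and 4.83% lower. Their median log2 ratio was -0.03 over distinct intervals and 0.06 over the 40 rows, against -0.11 over all rows, so its sign depends on how the identical rows are counted. Relative to the median of all rows the counts of members were the same, and 6.69% of all rows were then higher and 2.81% lower. The sum over clustered intervals was 35103 in *gsp* mutants against 36975 in their siblings, a ratio of 0.949, and that over the other protocadherins was 35167 in *gsp* mutants against 34998 in their siblings.

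In *rhs* mutants 16 of 25 intervals were lower (64%), against 12.6% of all measured rows, and 1 was higher, against 6.45%. The median log2 ratio of the members was -0.72, against -0.20 over all rows. Below 0 were 22 of 25 intervals, against 9961 of 13633 rows in the whole table. Relative to the median of all rows, 10 intervals were lower, against 5.12% of all rows, and 1 was higher, against 10.2%. The sum over clustered intervals was 19479 in *rhs* mutants against 36036 in their siblings, a ratio of 0.541. In whole embryos, fewer cells of a type and less RNA per cell cannot be told apart.

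Over distinct intervals, clustered protocadherins had a lower median ratio in *rhs* than the others. Of the 15 clustered intervals, 13 overlap other models, so their values are not independent of each other. Of 15 clustered intervals 10 were lower, with a median log2 ratio of -1.01, and of 10 other rows 6 were lower, with a median of -0.63. Relative to the median of all rows, 9 of 15 clustered intervals were lower and 1 of 10 other rows, *pcdh8*. Over the 30 clustered rows, in which 16 identical rows are counted singly, the clustered median was -0.44 and was above that of the others. Against *gsp* siblings in place of *rhs* siblings, 11 of the 16 lower or higher members that the naming rule names were still past the threshold in the same direction. The sign reversed in 1 of the 16, *pcdh1a3*. In that comparison 17.6% of all measured rows were lower and 11.7% higher. The sum over the other protocadherins was 26508 in *rhs* mutants against 35732 in their siblings, a ratio of 0.742. No test of the difference between the sets was possible with 1 library per condition.

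Markers of neurons moved with this result. Of 40 listed neuron markers 31 were found and 28 measured, and 22 of these were lower and 0 higher in *rhs* mutants, with a median log2 ratio of -0.71. Of all measured rows 12.6% were lower and 6.45% higher there, with a median of -0.20. The summed level of the neuron markers was 198639 in *rhs* mutants against 324511 in their siblings, a ratio of 0.612. In *gsp* it was 261517 in mutants and 291758 in siblings. There 0 markers were past the threshold, against 9.90% of all measured rows. The markers *syn2b* and *map1b* were at the floor in every library. Among the others, *elavl4* had 8183 in *rhs* mutants against 16100 in their siblings, and *snap25a* had 9841 in *rhs* mutants against 15817 in their siblings. The part of neuron content in the lower protocadherin levels was not tested.

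In *rhs* mutants markers of neural progenitors and glia were lower in part, and epidermis markers were not. Of 24 measured markers of neural progenitors and glia, 8 were lower and 0 higher in *rhs* mutants, with a median of -0.33, against -0.20 over all rows, and a summed level of 308473 in *rhs* mutants against 369214 in their siblings. Of 18 measured epidermis markers 9 were higher and 0 lower in *rhs* mutants, against 6.45% and 12.6% of all measured rows, with a median of 0.48. In *gsp* mutants 4 epidermis markers were higher and 5 lower, against 5.07% and 4.83% of all measured rows. The summed level of the 19 found was 4132460 in mutants and 7421660 in siblings. That sum was carried by 4 keratin rows (*krt4*, *cyt1*, *cyt1l* and *krt5*, picked after their values were seen). The other 14 measured markers summed to 539080 in *gsp* mutants and 459296 in *gsp* siblings, the opposite direction. In that sum *cldne* alone had 65161 in *gsp* mutants against 21966 in their siblings. Of the 14, *krt15*, *anxa1a*, *anxa1b*, *anxa1c*, *agr2* and *tp63* were below their siblings in *gsp*, and the rest were above. The part of these shifts in the protocadherin levels was not tested either.

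**Figure D4:**
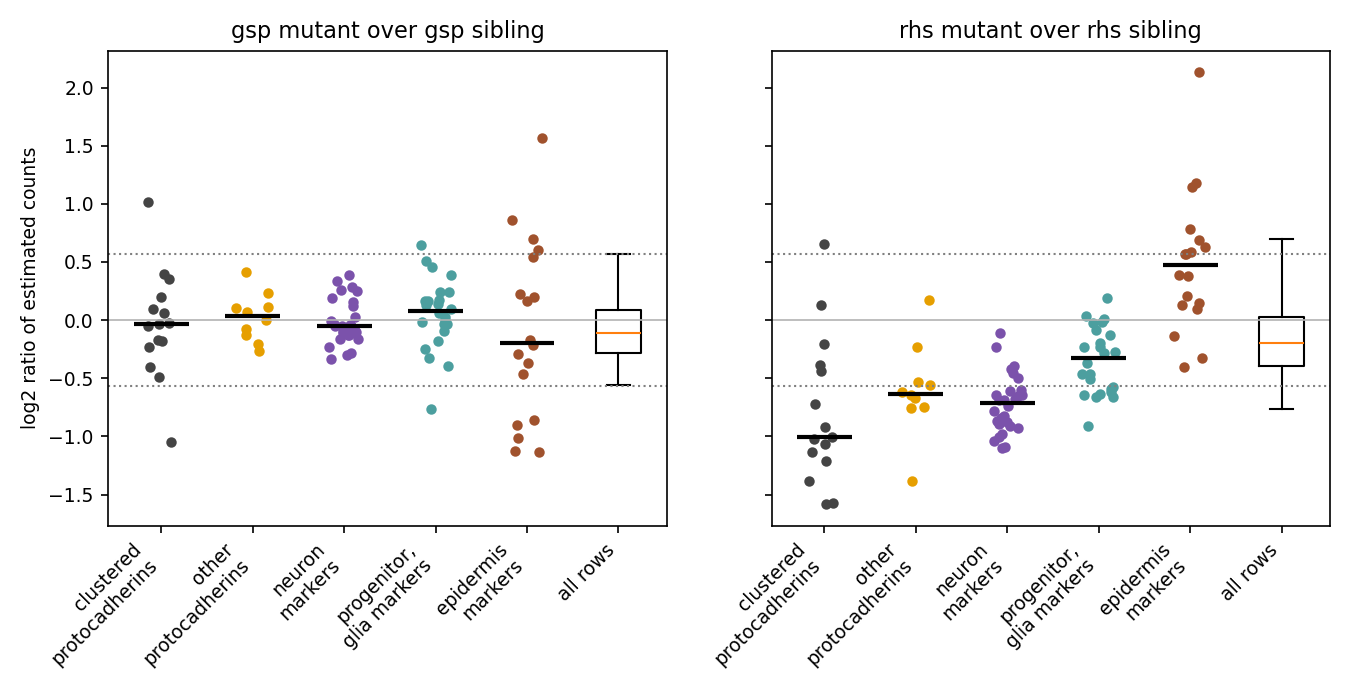
Log2 ratio of estimated counts, mutant over sibling, in gsp (left) and rhs (right) for measured clustered protocadherin intervals, other protocadherins and 3 marker lists, with 1 point per gene or interval and a bar at the median; the box shows the quartiles of all measured rows and its whiskers the percentiles 5 and 95, and dotted lines mark 1.48-fold. In rhs the medians are -1.01 for clustered and -0.63 for other protocadherins, -0.71 for neuron markers and 0.48 for epidermis markers.

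Genes that act with protocadherins were compared by a list of 46 regulators and signalling partners, of which 28 were found and 26 measured. None passed the threshold in *gsp*, and 3 were lower in *rhs* mutants (11.5%), a share near the 12.6% of all measured rows, with a median log2 ratio of -0.29 over the list. The 3 were *fyna*, which encodes a kinase that binds protocadherins in mice, with 4274 in *rhs* mutants against 6764 in their siblings, and *cyfip2* and *abi1b*, which encode subunits of the WAVE complex of actin assembly. *ctcf*, whose product binds the promoters of clustered protocadherins in mammals, had 17176 in *gsp* mutants against 16183 in their siblings, and 17134 in *rhs* mutants against 22685 in their siblings, a ratio of 0.755 in *rhs*. N-cadherin, encoded by *cdh2*, had 15621 in *rhs* mutants against 21009 in their siblings. Of 3 measured large or cadherin-related genes, *clstn1*, a calsyntenin gene, was lower in *rhs* mutants, with 8869 in mutants and 13784 in siblings.

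Between the sibling libraries, in which no mutation is homozygous, 17.5% of the 40 measured protocadherin rows were past the threshold. This was near the 18.5% of all measured rows. Over the 25 distinct intervals the share was 28%. Between *gsp* and *rhs* siblings 4 of 25 intervals were higher in *gsp* siblings (*pcdh1a6*, *pcdh1g30*, *pcdh2ac* and *pcdh8*), against 8.9% of all rows, and 3 were lower (*pcdh1g1*, *pcdh1g22* and *pcdh1a3*), against 9.58%. The log2 ratios had an SD of 0.999 over the 15 clustered intervals and 0.39 over the 10 other rows, against 0.73 over all measured rows. Over the 30 clustered rows, with the identical rows counted singly, the SD was 0.70. The clustered sums were 36975 in *gsp* siblings and 36036 in *rhs* siblings, a ratio of 1.03, in which the subfamilies offset each other. The ratio of *gsp* to *rhs* siblings was 1.54 for the *pcdh2* alpha sum and 0.838 for the *pcdh1* gamma sum, and without *pcdh2ac* the clustered ratio was 0.838.

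The sibling difference was larger than the *gsp* mutant ratio in 18 of 25 intervals, against 7201 of 13633 rows in the whole table. It was larger than the *rhs* mutant ratio in 5 of 25, against 6109 of 13633 rows, and larger than both in 5 of 25 (20%), against 33.8% of all rows. These comparisons share the sibling libraries. Between the mutants, 13 of 25 intervals were higher in *gsp* mutants than in *rhs* mutants, against 14.2% of all rows, and 1 was lower, *pcdh1g1*, against 10.7%.

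**Figure D5:**
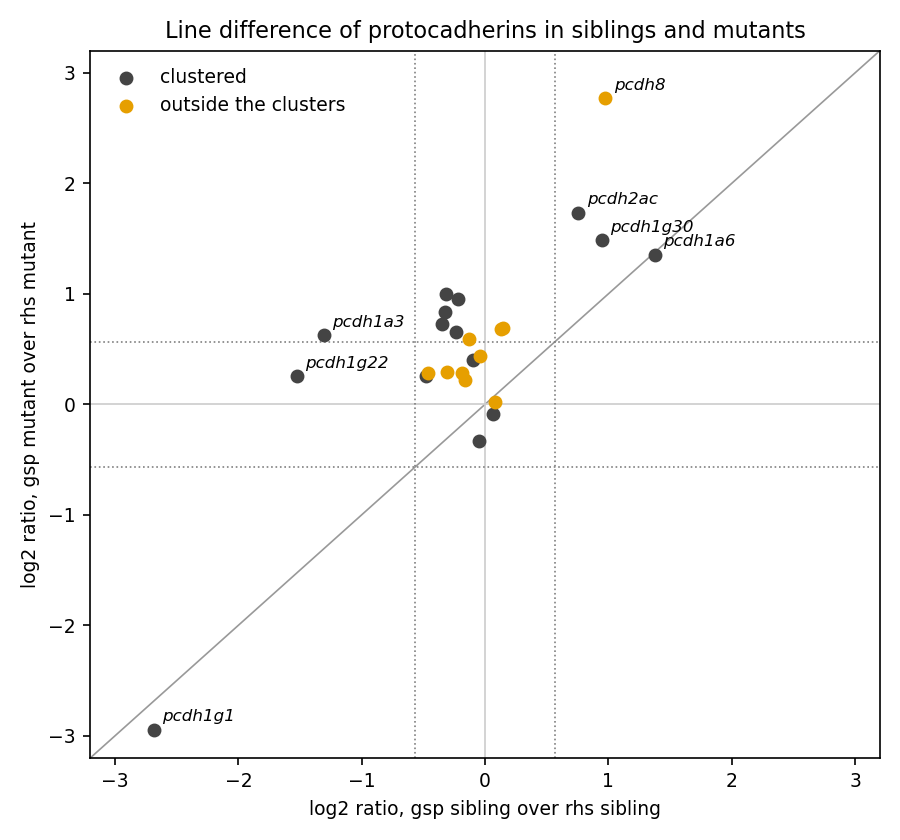
Log2 ratio of gsp mutants over rhs mutants (vertical) against that of gsp siblings over rhs siblings (horizontal) for the 25 measured protocadherin intervals, dark for clustered and orange for other members, with the line of equality and dotted lines at 1.48-fold. Of the intervals, 5 lie past the threshold the same way on both axes, and most lie above the line of equality.

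The 2 line differences share no library and can be set side by side. Past the threshold in the same direction in both were 5 of 25 intervals (20%), namely *pcdh1a6*, *pcdh1g1*, *pcdh1g30*, *pcdh2ac* and *pcdh8*, against 13.1% of all rows. Across the 25 intervals Pearson's r was 0.778 and Spearman's rho 0.408, against 0.840 and 0.567 over all 13633 rows, as a description over genes that are not independent replicates. The sign was the same in 9 of 25 intervals, against 67.3% of all rows. Since the mutant ratios link both differences, this count is not a result apart from them. Between the mutant ratios of *gsp* and *rhs* Pearson's r was 0.167 over the members, against 0.571 over all rows. Spearman's rho was 0.202 over the members and 0.296 over all rows, so by rank the values were closer.

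Members with overlapping models varied more. Of the 25 intervals, 13 overlapped between 3 and 15 other protocadherin models and 12 overlapped none. The median size of the log2 ratio was 0.23 for overlapping members and 0.11 for the others in *gsp*, 1.03 and 0.63 in *rhs*, and 0.35 and 0.15 between siblings. Past the threshold were 2 overlapping members and 0 others in *gsp*, 10 and 7 in *rhs*, and 5 and 2 between siblings. Of all measured rows, 9.90% were past it in either direction in *gsp*, 19.0% in *rhs* and 18.5% between siblings, so the 2 of 12 members without overlap between siblings are near that share. Both members past the threshold in *gsp* lie in the overlapping *pcdh1* alpha models, and their share of the 25 intervals (8%) is also near that of all measured rows. All 13 overlapping members are clustered, and the clustered intervals that overlap none are *pcdh2ac* and the shared *pcdh2* gamma interval, so overlap and cluster membership cannot be told apart.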

How the data were processed

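The authors isolated RNA from pooled *gsp* and *rhs* mutants and siblings, aligned the reads with TopHat 2.0 to danRer7 and used DEGseq to calculate transcript values, called RPKM in the paper. The deposited values are unscaled, are floored at 1 and sum to at least 106188690 per library, and were treated here as estimated counts. The deposited normalized columns are log2 values centred per transcript and served as an alternative only. Deposited tables of the authors' own fold changes were not used. The number of sample columns left unused was 0.

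Ratios were taken between libraries from unscaled values (Python 3.11.15, pandas 2.3.3, scipy 1.17.1), over rows with at least 100 in all 4 libraries. Intervals are Clopper-Pearson, on values rounded to whole numbers. PCR copies are not independent molecules, so they cover counting error only. TMM factors came from edgeR 4.0.16. The ratio computation was tested on simulated data. With 1 library per condition, no p-value was computed. Coordinates are those of the file, and sequences were not used here.

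The rule named every member outside the clusters with at least 100 in any library, and of the measured clustered members the 5 with the highest mean, the 4 largest and 4 smallest ratios in each of 3 comparisons, and any past the threshold in both mutants. Members, lists and rules were chosen with earlier results of these data known. Alternatives covered the minimum, scaling, control library, overlap, 10 added to each value, and the filter on siblings within 1.48-fold. Counting identical intervals once and the normalized columns were added after seeing the data.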

Additional observations from a re-analysis of the deposited data

Results flagged for a closer look

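*pcdh1a3* moved in opposite directions in the mutants of the 2 lines, with a log2 ratio of mutant to sibling of 1.02 in *gsp* and -0.92 in *rhs*, a difference of 1.93. With 1 library per condition this difference was not tested. Its model overlaps those of *pcdh1a4* and *pcdh1a6*, and both directions turn when the siblings of the other line serve as control.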

How the results depend on the processing

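With 1 library per condition no library could be left out. Each ratio already sets a mutant against the siblings of its own line. A fit over both pairs would treat different mutations as replicates and was not run. In *gsp*, 1 row was higher and 1 lower. Setting the *gsp* mutants against *rhs* siblings gave 3 higher and 3 lower of 40 rows. In that comparison 1598 of all 13633 measured rows were higher and 2181 lower, larger shares than those of the 40 member rows. Of these 40 rows, 16 are the identical rows, which were not past the threshold. Counted once, they leave 3 higher and 3 lower of 25 intervals. The higher share is then near that of all rows, and the lower share stays below that of all rows. The mean of both siblings gave 2 lower in *gsp*. Requiring siblings within 1.48-fold, or no overlap with another row, left 0 higher and 0 lower. The 16 identical rows count as overlapping each other here, which leaves 11 rows without overlap, 1 of them clustered. In *rhs*, where 1 row was higher and 16 were lower, centring on the median of all rows gave 10 lower, the sibling requirement gave 0 higher and 10 lower of 33 rows, rows without overlap gave 0 higher and 7 lower of 11, and a minimum of 200 gave 0 higher. Between siblings, with 4 higher and 3 lower, no minimum with 10 added gave 7 higher and 5 lower of 49 rows, and rows without overlap gave 2 and 0. Shares of all rows under the sibling requirement or the other minimums were not computed. The 33 and 49 rows include the 16 identical rows counted singly. The median log2 ratio of the 30 clustered rows in *rhs*, -0.44, was -0.24 after centring, -0.26 after TMM, -0.34 against *gsp* siblings and -0.27 in the authors' normalized columns. Between siblings it was -0.10 and became 0.76 in the 1 clustered row without overlap. The medians over 30 rows are the values of the shared *pcdh2* gamma interval, which makes up 16 of these rows. Over the 15 distinct clustered intervals the median in *rhs* was -1.01, and -0.81 after centring. It was not followed through the other alternatives. Against the siblings of the other line, the log2 ratio of *pcdh1a3* reversed to -0.29 in *gsp* and 0.39 in *rhs*, and that of *pcdh1a6* to 0.33 in *gsp*. The remaining causes were not tested. Of the 16 named members past the threshold in *rhs*, 16 remained with 10 added, 12 after TMM, 12 in the normalized columns and 10 after centring. Ratios resting on values near 100 are the least precise.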

Other observations

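A further 85 rows of the table are described as protocadherins without a symbol that starts with *pcdh*, and 83 of them were at the floor in all 4 libraries. *LOC568796*, described as like protocadherin-20, had 1872 in *gsp* mutants against 2378 in their siblings, and 2171 in *rhs* mutants against 1940 in their siblings. *LOC555504* had 616 in *gsp* mutants against 691 in their siblings, and 83.0 in *rhs* mutants against 102 in their siblings. The *gsp* sibling had 6.75 times the value of the *rhs* sibling, and the *gsp* mutant 7.43 times that of the *rhs* mutant, while within a line the ratio of mutant to sibling was 0.892 in *gsp* and 0.810 in *rhs*.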
